A study of Mus musculus with 9 samples.

Results

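The carboxylesterases of the Ces1, Ces2 and Ces3 clusters were described in mouse liver after knockdown of apoC-III. The 10 genes were taken by symbol from 51912 genes listed: Ces1c, Ces1d, Ces1e, Ces1f, Ces1g, Ces2a, Ces2c, Ces2e, Ces3a and Ces3b. All livers came from fasted mice with the genotype Apoe-/-Ndst1 f/f Alb-Cre+ (C57Bl/6 background), which lack apoE and in which the albumin promoter drives Cre, so that Ndst1, a heparan sulfate sulfotransferase, is deleted in hepatocytes. Controls carried the same alleles. A group of 5 mice had received an antisense oligonucleotide (ASO) against apoC-III and a group of 4 a control ASO, each at 50 mg/kg/week for 8 weeks. Age, sex and, for these livers, diet were not given in the sources used here. The question was whether lowering apoC-III came with other RNA levels of the hepatic carboxylesterases, as read from single-end sequencing of ribo-depleted liver RNA.

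Carboxylesterases are serine hydrolases that cleave esters, amides and thioesters. In the liver, most sit in the lumen of the endoplasmic reticulum, where they act on triglyceride and cholesteryl ester and activate or clear ester drugs such as prodrugs. Ces1d, also known as triacylglycerol hydrolase, and Ces1g have been studied for their part in hepatic triglyceride turnover and VLDL secretion. Ces1c is the plasma carboxylesterase of mice, secreted by the liver, and the Ces2 enzymes favour esters with a small acyl group and also hydrolyze acylglycerols.

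The genes form 2 runs of tandem copies on mouse chromosome 8 (GRCm38). The 5 Ces1 genes lie on the minus strand between 93099015 (the end of Ces1c) and 93337308 (the start of Ces1g). The Ces2 and Ces3 genes lie on the plus strand between 104734003 (the start of Ces2a) and 105093929 (the end of Ces3b). The sequences of the coding ends are printed because they hold the codons of the retention signal, where present, and show how closely some copies match. Each is the last 30 bases, stop codon included, of the longest coding sequence of GENCODE M21, with the 4 codons before the stop in capitals.
Ces1c: gaccctactgaacacACAGAACACAAAtga
Ces1d: ccatcccacagggaaCATGTTGAGCTCtga
Ces1e: caactgccgacagaaCACACTGAGCTGtga
Ces1f: caaccccagccatacCACAATGAGCTGtga
Ces1g: tcatcccatagggaaCATGTTGAACTGtga
Ces2a: ggttctcaggacaagCATGCAGAGCTGtag
Ces2c: gcttctcaggacaagCACAGGGAGCTTtag
Ces2e: gggtctcaggagaggCACAAAGAGTTGtag
Ces3a: agaagcaggaaagttCCAGAGGAGCTCtga
Ces3b: agaagcaggaaagttCCAGAGGAGCTCtga
An enzyme of this family is kept in the lumen by a carboxyl-terminal signal of histidine, any residue, glutamate and leucine. Codons for that signal closed 7 of the 10 coding sequences. They were not found in Ces1c, which is secreted, nor in Ces3a and Ces3b, whose last 30 bases were identical to each other.

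Near-identical copies matter for how reads are shared out. Of the 31-base words in the transcripts of Ces3b, 35.7% also occurred in Ces3a, and 34.9% of those of Ces3a occurred in Ces3b. Ces2c shared 50.1% of its words with other genes and 42.9% with Ces2d-ps, a pseudogene of the same run. Ces2a shared 30.2%, of which the larger part, 24.7% of all its words, was with the gene Gm7208, and Ces1c shared 23.3%, with 16.4% in Ces1b. The other 5 genes shared between 3.63% (Ces1f) and 8.68% (Ces2e). The split of reads between Ces3a and Ces3b, and between Ces2c and Ces2d-ps, is therefore the least certain by this measure, and sums of these pairs are given beside them. The levels of Ces2a and Ces1c are also less certain than those of the other 5 genes, and no sums were taken for them.

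Promoters (250 bases before to 50 after the start of the gene, RefSeq, GRCm38.p6) were present for 7 of the 10 genes: Ces1c, Ces1e, Ces1g, Ces2a, Ces2c, Ces2e and Ces3b. Those of 3 genes of the plus-strand run are printed because Ces2c and Ces3b had lower means in the apoC-III ASO group and their neighbor Ces2e did not. Ces2a of the same run also had a lower mean, and its promoter is not printed. Capitals mark matches, on either strand, to ACTTTG (letters of an HNF4 element), GTTAAT (letters of an HNF1 element), TATAAA (a core promoter element) or AGGTCA (letters of nuclear receptor elements).
Ces2c, chr8:104846818-104847117, plus strand: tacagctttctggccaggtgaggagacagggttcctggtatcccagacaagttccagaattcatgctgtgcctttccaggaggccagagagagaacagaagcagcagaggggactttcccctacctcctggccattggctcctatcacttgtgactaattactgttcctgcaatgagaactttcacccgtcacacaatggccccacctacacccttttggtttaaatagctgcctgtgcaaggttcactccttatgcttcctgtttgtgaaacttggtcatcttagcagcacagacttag
Ces2e, chr8:104926010-104926309, plus strand: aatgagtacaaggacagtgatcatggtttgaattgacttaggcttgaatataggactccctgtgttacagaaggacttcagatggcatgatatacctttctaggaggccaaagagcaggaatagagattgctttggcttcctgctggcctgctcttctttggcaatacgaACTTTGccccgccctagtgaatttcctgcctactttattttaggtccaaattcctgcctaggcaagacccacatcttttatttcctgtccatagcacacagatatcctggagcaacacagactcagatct
Ces3b, chr8:105083505-105083804, plus strand: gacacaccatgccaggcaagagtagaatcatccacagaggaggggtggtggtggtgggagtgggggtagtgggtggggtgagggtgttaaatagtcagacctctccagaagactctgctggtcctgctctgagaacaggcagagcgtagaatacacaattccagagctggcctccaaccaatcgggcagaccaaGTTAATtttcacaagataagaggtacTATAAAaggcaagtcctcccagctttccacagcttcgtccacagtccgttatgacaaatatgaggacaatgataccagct
ACTTTG was found in Ces2e, 80 bases before the start, and in Ces2a, 70 bases before it, and in 14.4% of all 32851 promoters. GTTAAT occurred in Ces3b only among the 7, 56 bases before the start, and in 7.1% of all promoters. TATAAA stood 30 bases before the start of Ces3b and, on the other strand, 26 before that of Ces1g, and in 13.6% of all promoters. AGGTCA was found in Ces2a only among the 7 and in 16.3% of all promoters. No match overlapped another, and no match to the 4 motifs was found in the windows of Ces2c, Ces1c and Ces1e.

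The deposited values were TPM (transcripts per 1000000, a length-corrected share of the library), which keep no depth, so counting error could not be given. Genes above 0 TPM numbered 17992 to 20928 per liver. Nuclear protein-coding genes held 3.04% to 5.31% of each treated library and 1.94% to 8.64% of each control library. TPM were therefore divided by median-of-ratios factors, which lay between 0.627 and 1.56 for treated livers and between 0.213 and 1.78 for controls, and are called scaled TPM. The lowest factor was that of control ASO replicate 4, which stands apart from the other livers. Apoc3 was 20.6 ± 5.02 scaled TPM (SD, n = 5) with the apoC-III ASO and 163 ± 21.4 (SD, n = 4) with the control ASO, 87.4% lower without overlap (log2 fold change -2.95, SE 0.25, limma adjusted p = 0.00105), in the direction of the labels. Hepatocyte markers, such as albumin, summed to 1147 to 2555 scaled TPM in treated livers and 1607 to 2091 in controls, and all 7 had means of 1 or more. Kupffer cell markers summed to 3.89 to 5.56 and 3.51 to 6.13, and stellate cell markers to 9.34 to 14.3 and 12.2 to 20.5, respectively. Those of sinusoidal endothelium, bile duct, lymphocytes and intestine each summed to less than stellate cell markers in every liver, and of the 4 markers each of white fat and of exocrine pancreas, 2 were at 0 in all livers. The part of other cells in the results was not tested, and with whole liver, fewer hepatocytes and less RNA per hepatocyte cannot be told apart.

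All 10 genes were expressed in every liver, and the levels span from Ces3a to Ces2c. As a mean over the 9 livers, Ces3a stood at 93.2 scaled TPM, Ces1c at 47.1, Ces3b at 34.6, Ces1d at 22.6, Ces1f at 12.5, Ces2a at 8.55, Ces1e at 5.26, Ces2e at 4.38, Ces1g at 3.91 and Ces2c at 2.37. Since TPM is per length, these levels can be compared between genes. Ces3a exceeded Ces1c in 9 of 9 livers, Ces2a exceeded Ces1e in 9 and Ces1g exceeded Ces2c in 9. Ces1c exceeded Ces3b in 8, Ces1f exceeded Ces2a in 8, Ces3b exceeded Ces1d in 7 and Ces1d exceeded Ces1f in 7. The order of the other neighbors differed by group: Ces2e exceeded Ces1g in 5 of 5 treated livers and 0 of 4 controls, and Ces1e exceeded Ces2e in 1 of 5 treated livers and 4 of 4 controls.

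Within the family, Ces3a made up 39.7% of the TPM of all 20 carboxylesterase genes listed, Ces1c 20.1% and Ces3b 13.4%, as means over the 9 livers. The 10 genes together held 96.6% to 98.4% of it. Of the other 10 genes, Ces1b had a mean over 1 scaled TPM. It lay between 2.48 and 6.14 scaled TPM with the apoC-III ASO and between 2.41 and 5.45 with the control ASO, and its log2 fold change was 0.06 (SE 0.25). Ces1a, Ces1h, Ces2b, Ces2d-ps, Ces2f, Ces2g, Ces2h, Ces4a and Ces5a had means below 1.

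**Figure D1:**
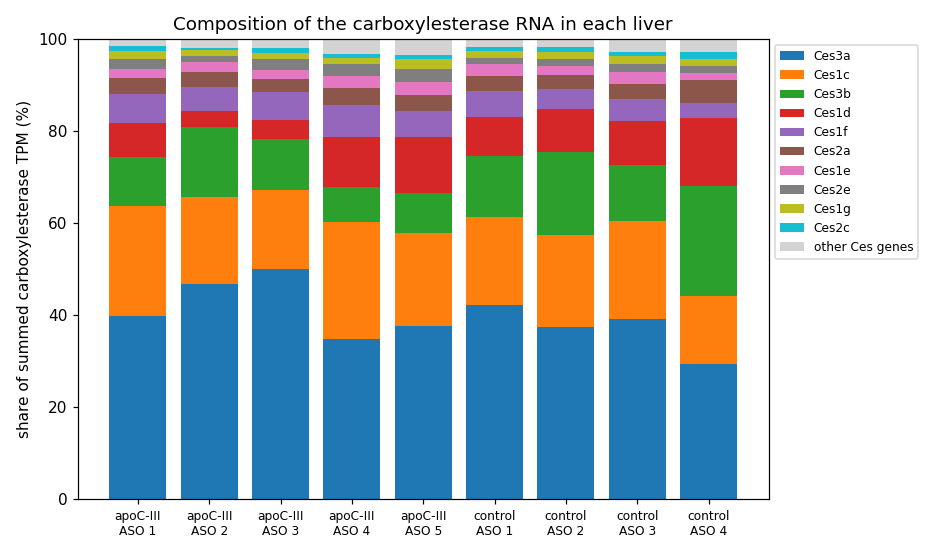
Share (%) of each carboxylesterase in the summed TPM of all 20 listed carboxylesterase genes, 1 stacked bar per liver (5 apoC-III ASO, 4 control ASO), which does not depend on library scaling. Ces3a and Ces1c form the lower part of every bar, and the share of Ces3b is highest, at 23.7%, in control ASO replicate 4.

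No carboxylesterase passed the test for a difference between the groups. Of the 4503 genes tested, limma called 2 (0.0444%) at an adjusted p under 0.05 and over 1.5-fold, and 0 of the 10 were among them. The lowest adjusted p of the 10 was 0.766 (Ces3b). Without adjustment, 5 of the 10 had a p under 0.05, all with lower means in the apoC-III ASO group (Ces3b, Ces2c, Ces1d, Ces1g and Ces1e), against 3.09% of all genes tested in that direction. An exact permutation test of scaled TPM gave an unadjusted p under 0.05 for 3 of the 10 (Ces2c, Ces3b and Ces1e), all lower, against 3.24% of all genes tested that were lower by that test. In the same fit 9 of the 10 had a negative log2 fold change and Ces2e a positive one, and the median of the 10 was -0.39, beside -0.02 over all genes, of which 53.6% were negative. Control ASO replicate 4 bears on this: it was the highest control for 8 of the 10, while it was above the other controls for 38.6% of all genes tested, and its median ratio to the mean of the other controls was 1.56 in the 10 and 1.02 over all genes. Without that liver, 2 of the 10 (Ces3b and Ces2c) had a lower mean at an unadjusted p under 0.05, against 2.91% of the 4472 genes then tested, and the median of the 10 was -0.26. With median-of-ratios factors taken from nuclear protein-coding genes alone, 4 of the 10 (Ces1d, Ces1g, Ces2c and Ces3b) did so, against 2.57% of 11991 genes. In TPM as deposited, where 29.2% of all genes were lower, 6 of the 10 had a negative log2 fold change, 0 of them at an unadjusted p under 0.05, and the median was -0.16 in the 10 and 0.11 over all genes. As a share of nuclear protein-coding TPM, without factors, 5 of the 10 had a negative log2 fold change, 0 of them at an unadjusted p under 0.05, and Ces2e was higher at 0.61 (unadjusted p = 0.0395 in limma). On that scale the median was 0.00 in the 10 and 0.41 over all genes, of which 12% were lower. At an unadjusted p under 0.05 in limma, 10.7% of all genes on that scale were higher and 0.34% were lower. The 10 genes were chosen with earlier results of these data known, so their counts beside the shares of all genes are descriptions and not tests.

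**Figure D2:**
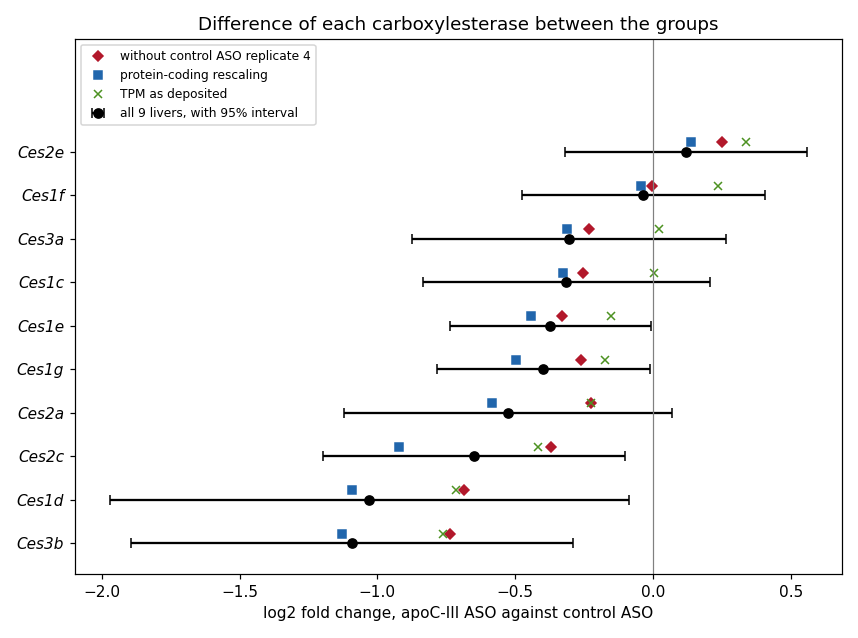
Log2 fold change (x axis, apoC-III ASO against control ASO) of the 10 carboxylesterases. Black points are the fit to all 9 livers with 95% intervals, and colored symbols give the fit without control ASO replicate 4, after protein-coding rescaling, and to TPM as deposited. In the fit to all livers 5 intervals lie below 0, those of Ces3b, Ces1d, Ces2c, Ces1g and Ces1e, and without control ASO replicate 4 the points of Ces3b and Ces1d move to -0.74 and -0.68.

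**Figure D3:**
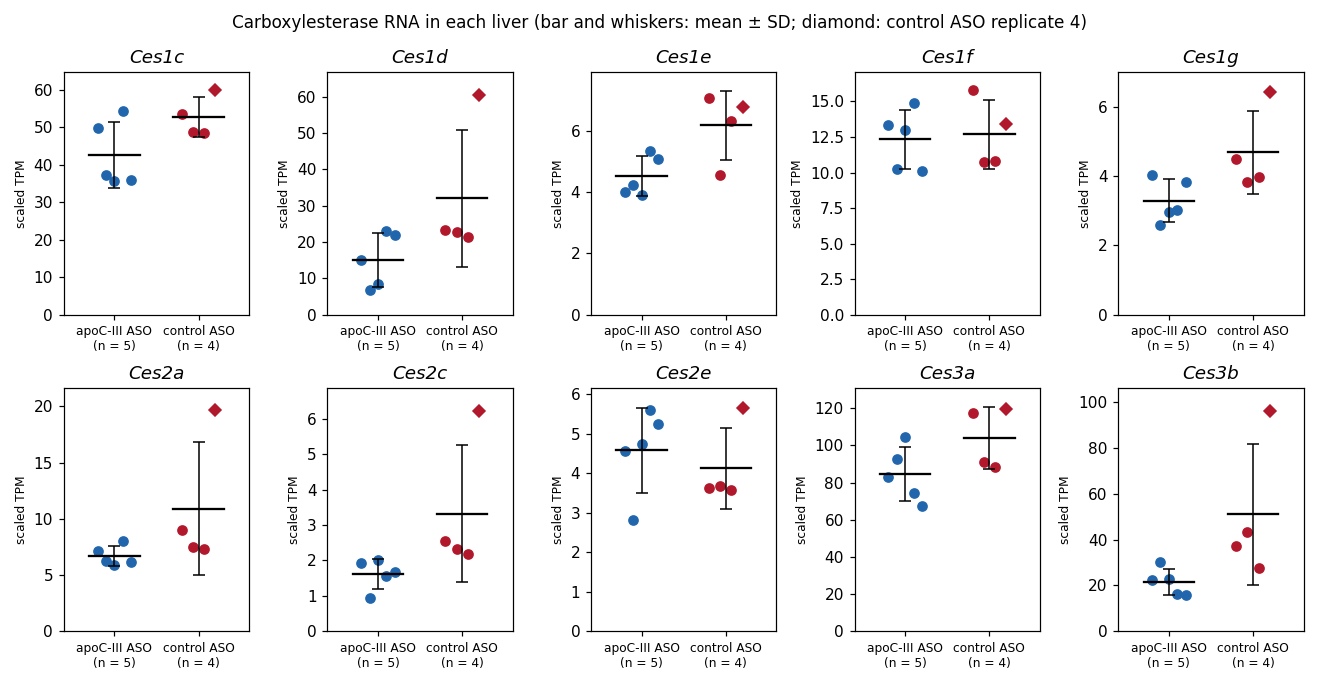
Scaled TPM (linear y axis from 0, each panel on its own range) of the 10 carboxylesterases in 5 apoC-III ASO livers (blue) and 4 control ASO livers (red), with the mean and SD of each group. The groups do not overlap in the panel of Ces2c, and control ASO replicate 4 (diamond) lies above every other liver in 8 panels, all but those of Ces1e and Ces1f.

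The Ces3 genes, hepatic carboxylesterases encoded side by side, differed in the size of their difference between groups. Ces3b (chr8:105083753-105093929) stood at 22.4, 30.1, 22.9, 16.2 and 15.7 scaled TPM in apoC-III ASO replicates 1 to 5. In control ASO replicates 1 to 4 it stood at 37.0, 43.5, 27.6 and 96.2. The groups overlapped in that apoC-III ASO replicate 2 was above control ASO replicate 3, and the other 4 treated livers were below every control. The mean was 21.4 ± 5.89 (SD, n = 5) against 51.1 ± 30.8 (SD, n = 4), and the log2 fold change was -1.09 (SE 0.36, 95% interval -1.89 to -0.29, unadjusted p = 0.0123 and adjusted p = 0.766 in limma). Without control ASO replicate 4 the log2 fold change was -0.74 (unadjusted p = 0.0235 in limma), and the treated mean stood at -40.5% relative to the control mean, in place of -58.0%.

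Ces3a, the most abundant of the 10, showed the smaller difference. It stood at 83.2, 92.4, 104, 74.5 and 67.5 scaled TPM with the apoC-III ASO and at 118, 91.2, 88.4 and 119 with the control ASO. Its ranges overlapped widely, and the log2 fold change was -0.30 (SE 0.26, 95% interval -0.87 to 0.27). Because the copies share 31-base words, their sum was taken. Ces3a and Ces3b together ranged from 83.1 to 127 scaled TPM in treated livers and from 116 to 216 in controls, so the sum overlapped between groups. Their ratio, which needs no scaling between livers, showed Ces3b at 0.218 to 0.326 of Ces3a in treated livers and at 0.312 to 0.806 in controls.

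In the Ces1 run, Ces1d, the triacylglycerol hydrolase, had the largest fold difference. It stood at 15.2, 6.90, 8.59, 23.1 and 21.9 scaled TPM in treated livers and at 23.4, 22.9, 21.4 and 60.4 in controls. Among treated livers, 3 were below all controls, and replicates 4 and 5 reached the level of the lower controls. The log2 fold change was -1.03 (SE 0.43, 95% interval -1.97 to -0.09, unadjusted p = 0.035 and adjusted p = 0.858 in limma). Without control ASO replicate 4, in which Ces1d was 2.68 times the mean of the other controls, it was -0.68 (unadjusted p = 0.105 in limma).

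Ces1g and Ces1e had smaller and more even differences. Ces1g, a carboxylesterase known for effects on hepatic lipid, stood at 4.04, 2.59, 2.96, 3.03 and 3.83 scaled TPM in treated livers and at 4.51, 3.83, 3.99 and 6.42 in controls. Its log2 fold change was -0.40 (SE 0.17, unadjusted p = 0.0446 in limma), and without control ASO replicate 4 it was -0.26 (unadjusted p = 0.129). Ces1e, also known as egasyn, which holds beta-glucuronidase in the endoplasmic reticulum, stood at 4.01, 4.25, 3.91, 5.34 and 5.09 in treated livers and at 7.08, 4.57, 6.31 and 6.77 in controls. The only control of Ces1e within the treated range was replicate 2. Its log2 fold change was -0.37 (SE 0.16, unadjusted p = 0.046 in limma), and without control ASO replicate 4 it was -0.33 (unadjusted p = 0.0935). As shares of nuclear protein-coding TPM without factors, Ces1e was at 0.03 and Ces1g at -0.02.

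Ces1c and Ces1f, the remaining genes of the Ces1 run, had intervals that included 0. Ces1c, whose product circulates in plasma, stood at 49.7, 37.4, 35.8, 54.4 and 35.9 scaled TPM in treated livers and at 53.6, 48.7, 48.5 and 59.8 in controls, a log2 fold change of -0.31 (SE 0.23, 95% interval -0.84 to 0.21). Treated replicates 1 and 4 lay within the control range, and the other 3 lay below it. Ces1f, another hepatic carboxylesterase with the retention codons, ranged from 10.1 to 14.9 in treated livers and from 10.7 to 15.8 in controls. Its log2 fold change was the nearest to 0 of the 10 at -0.04 (SE 0.20, 95% interval -0.48 to 0.41), and its sign turned in 7 of 26 alternative settings.

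Among the Ces2 genes, which encode hydrolases of drugs and acylglycerols, Ces2c was the only one of the 10 whose groups did not overlap in scaled TPM. Of all genes tested, 1.22% were lower without overlap on that scale. Ces2c lies at chr8:104847068-104854483. It stood at 1.92, 0.943, 2.01, 1.56 and 1.66 scaled TPM in treated livers and at 2.55, 2.31, 2.19 and 6.22 in controls. The highest treated liver was at 2.01 and the lowest control at 2.19. The log2 fold change was -0.65 (SE 0.25, 95% interval -1.20 to -0.10, unadjusted p = 0.0246 and adjusted p = 0.835 in limma). The exact two-sided permutation p on scaled TPM was 0.0159, or 0.729 after adjustment. The unadjusted value is the smallest that 5 against 4 livers can give, and it follows from the lack of overlap. Without control ASO replicate 4 the log2 fold change was -0.37 (unadjusted p = 0.0451 in limma). Groups that are separate in scaled TPM cannot come to overlap by leaving out a liver. In TPM as deposited the groups of Ces2c overlapped with and without control ASO replicate 4. Ces2d-ps, the pseudogene that shares 31-base words with Ces2c, was at 0.0795 or less in all livers other than control ASO replicate 4, where it was at 4.72. The sum of both was at most 2.01 in treated livers and at least 2.20 in controls.

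Ces2a and Ces2e lie on either side of Ces2c in this run and had log2 fold changes of opposite sign. Ces2a stood at 7.09, 6.21, 5.91, 8.04 and 6.16 scaled TPM in treated livers and at 9.04, 7.52, 7.32 and 19.7 in controls. Only treated replicate 4 reached the control range, and the log2 fold change was -0.53 (SE 0.27, 95% interval -1.12 to 0.07, unadjusted p = 0.0767 in limma), or -0.22 without control ASO replicate 4 (unadjusted p = 0.209). Ces2e stood at 4.55, 2.80, 4.74, 5.59 and 5.24 in treated livers and at 3.61, 3.66, 3.56 and 5.65 in controls. It was the only one of the 10 with a higher mean in treated livers, 4.58 ± 1.08 (SD, n = 5) against 4.12 ± 1.02 (SD, n = 4), and the log2 fold change was 0.12 (SE 0.20, 95% interval -0.32 to 0.56). Without control ASO replicate 4 it was 0.25 (unadjusted p = 0.222 in limma).

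Ratios within a liver do not depend on how libraries are scaled. Of the 45 ratios among the 10 genes, 3 did not overlap between groups (6.67%), against 2.32% of the ratios between any 2 tested genes above 0 in every liver, and all 3 had Ces2e as the denominator. Ces2c was at 0.423, 0.337, 0.424, 0.279 and 0.316 of Ces2e in treated livers and at 0.707, 0.632, 0.615 and 1.10 in controls. Ces1g was at 0.889, 0.923, 0.624, 0.542 and 0.732 of Ces2e in treated livers and at 1.25, 1.05, 1.12 and 1.14 in controls. Ces1d was at 1.81 to 4.18 times Ces2e in treated livers and at 6.01 to 10.7 times in controls. Leaving out control ASO replicate 4 could not make these 3 ratios overlap, and no further ratio became separate without it. The ratios share genes and livers, so they are not separate tests.

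**Figure D4:**
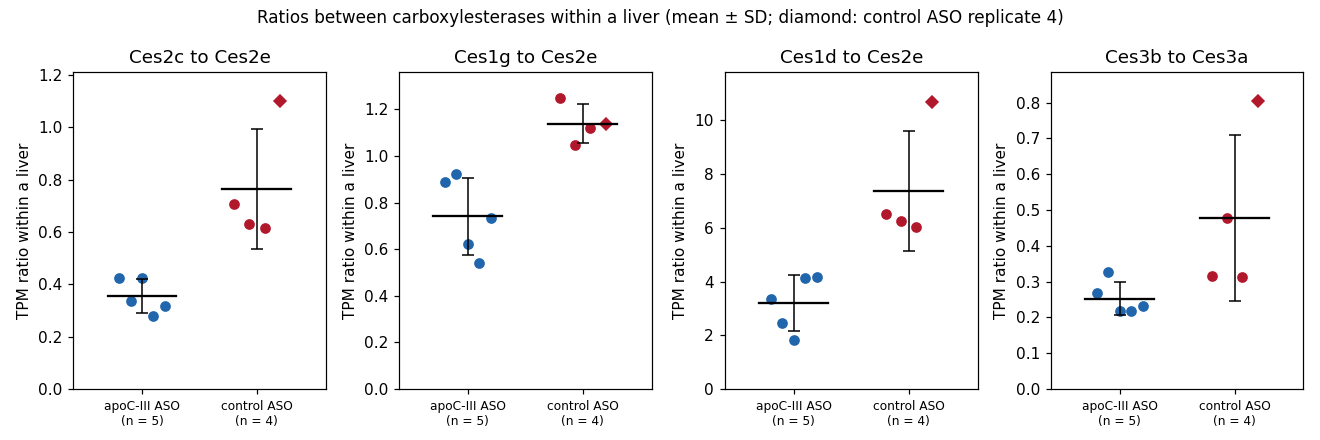
TPM ratio of 2 carboxylesterases within each liver (linear y axes from 0), with the mean and SD of 5 apoC-III ASO livers (blue) and 4 control ASO livers (red). Ces2c, Ces1g and Ces1d relative to Ces2e do not overlap between the groups, and the ratio of Ces3b to Ces3a overlaps at 0.312 to 0.326.

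The summed level of the 10 genes was 205, 194, 204, 207 and 173 scaled TPM in treated livers and 274, 239, 220 and 394 in controls. The lowest control was above the highest treated liver, and without control ASO replicate 4 the treated mean stood at -19.6% relative to the control mean, in place of -30.2%. That separation depends on the factors: of nuclear protein-coding TPM, the 10 genes made up 0.604%, 0.619%, 0.526%, 0.46% and 0.358% in treated livers and 0.565%, 0.599%, 0.451% and 0.432% in controls. These shares overlapped, and control ASO replicate 4 was the lowest control. In TPM as deposited the summed level of all listed carboxylesterases overlapped, from 112 to 326 in treated livers and from 86.4 to 497 in controls, with control ASO replicate 4 the lowest of the 9.

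The mean of the 10 genes' centred profiles over the 9 livers was closest to that of Cyp2a12, a cytochrome P450 of the liver, with a root-mean-square difference of 0.08 log2 units after centring. Dera, an aldolase of deoxyribose phosphate, followed at 0.11, then Rarres1 at 0.11, Aldh1a1, a retinal dehydrogenase, at 0.12 and Apoh, a plasma glycoprotein, at 0.12, out of 4492 genes outside the family. Cyp2a12 stood at 25.5 to 29.9 scaled TPM in treated livers and at 32.5 to 53.9 in controls. Because it was chosen for its likeness to that mean, this difference between groups is not a separate result. The 10 genes themselves differed in how near they lay to that mean: Ces1g (0.13) ranked 8 and Ces2a 27 among all genes tested, while Ces2e ranked 1035, Ces3b 3236 and Ces1d (0.54) 3435. Each of the 10 is part of that mean, which favours its rank over those of genes outside the family.

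Genes with related roles were read from 5 lists, and 0 of their genes passed the adjusted test. Among other neutral lipid hydrolases, 4 of 8 tested were lower, with a median log2 fold change of -0.02. Pnpla6, a lysophospholipase, was at 0.62 (unadjusted p = 0.0467). G0s2, an inhibitor of adipose triglyceride lipase, was at -0.60, Mgll, the monoacylglycerol lipase, at -0.43 and Aadac, a microsomal deacetylase, at -0.32. Without control ASO replicate 4, 5 of the 8 were lower with a median of -0.04, and 0 had an unadjusted p under 0.05 in limma. Among other drug and ester hydrolases, 8 of 12 were lower, with a median of -0.23, and Faah, which degrades fatty acid amides, was at -0.33 (unadjusted p = 0.0412). Pon1, the serum paraoxonase, was at -0.61, the soluble epoxide hydrolase Ephx2 at -0.55 and the thioesterase Lypla1 at -0.37. Without that control liver 7 of the 12 were lower, and the median was -0.05. Of the VLDL assembly genes 7 of 9 were lower, with a median of -0.13 and none under an unadjusted p of 0.05 in limma, and Plin2, a lipid droplet coat protein, was at -0.71 (unadjusted p = 0.0832). P4hb, a subunit of the microsomal triglyceride transfer complex, was at -0.36, Cideb at 0.33 and Sar1b, a GTPase of vesicle budding, at -0.26. Without that control liver 5 of the 9 were lower and 4 higher, with a median of -0.11. Of 12 regulators known at carboxylesterase genes, 7 were lower, none at an unadjusted p under 0.05 in limma, and the median was -0.04. The constitutive androstane receptor, Nr1i3, was at -0.42 (unadjusted p = 0.0901), Hnf4a at 0.37 (unadjusted p = 0.149), the liver X receptor gene Nr1h2 at 0.56 and Usf1 at 0.38. Without that control liver 9 of the 12 were lower, and the median was -0.12.

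The list of xenobiotic receptor targets had a median log2 fold change of -0.48, with 12 of 14 tested lower and 5 lower at an unadjusted p under 0.05, against 3.09% of all genes. These were cytochromes P450 that oxidize drugs and fatty acids: Cyp2c29 at -1.05 (unadjusted p = 0.00167), Cyp2c37 at -0.91 (unadjusted p = 0.01), Cyp2c54 at -0.67 (unadjusted p = 0.0217), Cyp2c50 at -0.59 (unadjusted p = 0.0362) and Cyp3a13 at -0.49 (unadjusted p = 0.0271). The lowest adjusted p among them was 0.447, of Cyp2c29. Without control ASO replicate 4 the median was -0.38, and at an unadjusted p under 0.05, 2 of the 14 were lower, against 2.91% of all genes, and 1 was higher, against 2.59%. The Cyp2c genes are close copies of each other, and how their reads were split was not tested. The lists were chosen with earlier results of these data known, so their counts beside the shares of all genes are descriptions and not tests.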

How the data were processed

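Livers of 5 apoC-III ASO and 4 control ASO mice were compared, grouped by their labels. The values the authors deposited were TPM for each gene. The submitters' notes name kallisto 0.43.1 and GRCm38. The methods of the study name STAR, featureCounts and DESeq2 on counts, which were not used here, so it is not known whether both came from the same quantification. TPM keeps no depth.

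TPM were divided by median-of-ratios factors from 14190 genes above 0 in all livers. Genes with a mean of at least 1 scaled TPM were tested with limma 3.58.1 in R 4.3.3, by lmFit and a trended eBayes, on log2(scaled TPM + 1), without covariates, with Benjamini-Hochberg adjustment over all 4503 genes. Fold changes are on that scale, which understates those of low genes. A call needed an adjusted p under 0.05 and over 1.5-fold. Exact two-sided permutation tests ran over 126 splits. The limma p-values set the difference between groups against the spread between these livers, moderated over all genes. The permutation p-values set it against all splits of these livers. The limma fit was tested on simulated data with independent noise for each gene, which held no liver like control ASO replicate 4.

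Identifiers of 51719 of 51912 genes matched GENCODE M21, whose transcripts gave coding ends and 31-base words (the word length of the authors' index is not given in the sources used here). Tables and plots were made in Python 3.11.15 (pandas 2.3.3, numpy 2.4.6, matplotlib 3.10.9). The members and lists were chosen with earlier results of these data known, as were the alternatives (3 of them added after seeing the data). Named genes were all 10 members, other carboxylesterases, from each list up to 4 genes (unadjusted p under 0.05 first, then the largest change), the 5 genes of nearest profile and Apoc3. Cyp2c50 was named after its value was seen.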

Additional observations from a re-analysis of the deposited data

Results flagged for a closer look

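Single livers that stood far from the rest of their group were sought in scaled TPM. The measure was the gap to the nearest liver over the range of the group (Dixon's criterion). It was taken in 26 groups of values, those of the 10 carboxylesterases, Ces1b, Ces2d-ps and Ces5a in each treatment group. The other listed carboxylesterases were not examined. Chance alone would flag about 1 in 20 groups, but these genes were not drawn at random, so the count flagged cannot be read against that rate. The criterion marked 7 values of 6 genes. In control ASO replicate 4 these were Ces1d at 60.4, Ces2a at 19.7, Ces2c at 6.22, Ces2e at 5.65, Ces2d-ps at 4.72 and Ces5a at 2.82. In apoC-III ASO replicate 2 it was Ces5a at 0.00677, a liver in which this gene was above 0 while the other 4 were at 0. Control ASO replicate 4 had the lowest scaling factor (0.213). In TPM as deposited it was the lowest control for all 10 carboxylesterases described, Ces1d, Ces2a, Ces2c and Ces2e included, and the highest for Ces2d-ps (1.01) and Ces5a (0.602). The part of that library in these values was not tested.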

How the results depend on the processing

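None of the 10 carboxylesterases was called in any setting run. The number lower at an unadjusted p under 0.05 is given with the share of all genes that were so in brackets. It was 5 (3.09%) and became 0 in TPM as deposited (0.972%). It was 3 with quantile normalization (2.65%) or robust eBayes (3.02%), and 2 of 7 tested with a minimum mean of 5 (5.26%). It ranged from 1 (without apoC-III ASO replicate 2) to 5 with each liver left out in turn (2.11% to 4.18%). With control ASO replicate 4 left out it was 2 after protein-coding rescaling (2.52%) and 3 in TPM as deposited (5.01%, with 83.8% of all genes lower). As a share of nuclear protein-coding TPM with all livers, 1 was higher at that p, Ces2e, against 10.7% of all genes. These 3 settings were added after seeing the data. All genes called, 2, became 11 in TPM as deposited, 4 with quantile normalization, 1 with no filter or a minimum of 5, 5 with array weights, 4 in TPM as deposited without control ASO replicate 4, and 1 as a share of nuclear protein-coding TPM. With each liver left out it ranged from 1 to 4. Apoc3 was not called in TPM as deposited (-2.62, adjusted p = 0.104). The sign turned for Ces1c (0.0041) and Ces3a (0.024) in TPM as deposited, and for Ces1f in TPM as deposited (0.24) and with quantile normalization (0.082). It turned for Ces1f between -0.104 and 0.069 with livers left out, and for Ces2e in TPM as deposited without control ASO replicate 4 (-0.029). As a share of nuclear protein-coding TPM it turned for Ces1c (0.15), Ces1e (0.031), Ces1f (0.44) and Ces3a (0.17). The causes were not tested.

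With a block for the replicate number, 0 genes were called, 5 of the 10 carboxylesterases were lower at an unadjusted p under 0.05 (against 5.44% of all genes, in place of 3.09%), Ces1f was at 0.026 and Apoc3 at -2.98 (adjusted p = 0.0505). Livers numbered 2, 3 and 4 correlated with their counterparts at 0.183, 0.158 and 0.169 in deviations from the group means, those numbered 1 at -0.0026, and controls 2, 3 and 4 correlated best with their own number. Not every pair was over 0.1, so the numbers were not taken to pair the livers. TPM keeps no depth, so the counting error of low genes such as Ces2c could not be estimated.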
